A study of Mus musculus with 11 samples.

Results

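The genes examined here encode the Polycomb complexes, the enzymes that methylate lysine 9 of histone H3 (H3K9), the arginine methyltransferase Prmt5 and the KDM histone demethylases, followed in sorted mouse fetal germ cells. The set was defined as 32 listed genes plus every gene whose symbol starts with Kdm, measured on 11 Illumina BeadChip arrays, and a probe entered when at least 2 arrays gave it a detection p-value below 0.01. Of 50 genes sought, 49 had a probe with that name alone on the array, and 45 genes with 82 of 114 probes passed. The whole series had 11598 genes and 21943 probes past the same filter, of 19057 genes and 45281 probes. Bmi1, Cbx8, Kdm4a and Kdm4d did not pass, with Cbx8 detected on 1 array and the other three on none, and Suv39h1 had no named probe. A gene was counted by the brightest of its kept probes, by the mean of 11 arrays. Of the 45 genes, 10 belong to Polycomb repressive complex 2 (PRC2), 14 to Polycomb repressive complex 1 (PRC1), 5 are H3K9 or arginine methyltransferases and 16 are demethylases.

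Germ cells were sorted by flow cytometry from gonads on green fluorescent protein (GFP) expressed under Pou5f1 control, at embryonic days E11.5 (labelled male/female), E13.5 and E15.5 (both labelled male), with 3 biological replicates at each stage. Sex and stage can therefore not be told apart in comparisons with E11.5. The control was the GFP-negative cells of male gonads at E13.5, called non-germ here, with 2 replicates. All samples came from (CBA/CaJ X C57BL/6J)F16+ animals crossed with Hsd:ICR(CD-1), and 10 ng of RNA was amplified for each array. The labels do not give the number of embryos behind a replicate. The non-germ fraction holds every gonadal cell without the reporter, so it is a mixture of cell types.

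PRC2 places methyl groups on lysine 27 of histone H3 through its alternative catalytic subunits Ezh1 and Ezh2, held in a core with Eed, Suz12 and Rbbp4 or Rbbp7. PRC1 ubiquitinates histone H2A through Ring1 or Rnf2, and its PCGF, CBX, PHC and RYBP/YAF2 subunits define canonical and variant complexes. H3K9 methylation by Ehmt1, Ehmt2, Suv39h2 and Setdb1 is a mark of silent chromatin, and the KDM enzymes remove methyl groups from histone lysines. Fetal germ cells are known to lose DNA methylation and most H3K9 dimethylation while lysine 27 trimethylation is reorganised.

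Values are background-corrected log2 intensities after quantile scaling, and are compared within a probe only. Between 14860 and 18657 probes were detected per array. All 9 germ cell markers measured were detected on every germ cell array and 2 of 9 on each non-germ array. E15.5 replicate 2 stood apart from the other E15.5 arrays, with Pearson correlations across genes of 0.912 and 0.926 to them, against 0.972 between replicates 1 and 3. Its mean over 8 interstitial markers was 10.4, with all 8 detected, against 6.47 and 6.66 in E15.5 replicates 1 and 3, 5.70 to 6.04 in E13.5 and 5.71 to 6.49 in E11.5 germ cells and 11.2 on each non-germ array. Sertoli markers averaged 8.67 there with 7 of 9 detected, against 6.12 and 7.05 with 2 and 7 detected in replicates 1 and 3. E13.5 germ cells averaged 5.48 to 6.52 for these markers, with 1 to 4 detected, and non-germ arrays 9.13 and 9.55 with all 9 detected. Stress genes averaged 8.31 to 8.70 in E11.5 and 7.12 to 7.61 in E13.5 germ cells, 8.79, 10.5 and 8.40 in E15.5 replicates 1 to 3 and 10.6 and 10.3 in non-germ cells, so that all E15.5 arrays lay above all E13.5 arrays. Stage results are therefore also given without that array where a call changed. The part of these transcripts in the results was not tested.

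Promoters of 3 of the 6 PRC2 genes called lower at E15.5 than at E13.5 are shown. Of these, Phf19 was already lower at E13.5 than at E11.5. That of the demethylase Kdm1b, which had the largest rise of the set over the stages, stands beside them. Each line gives the 250 bases before a RefSeq transcript start in build GRCm38.p6, 5′ to 3′ on the gene's strand, and capitals mark a match to the E2F-type letters TTCCCGC or TTGGCGC on either strand. The Ezh2 and Kdm1b windows lie partly and the Phf19 window wholly inside the annotated gene. For these genes the annotated 5′ end lies upstream of the transcript start used. E2F factors are known to activate Ezh2 and Eed in fibroblasts.
Ezh2, chr6:47595031-47595280, minus strand: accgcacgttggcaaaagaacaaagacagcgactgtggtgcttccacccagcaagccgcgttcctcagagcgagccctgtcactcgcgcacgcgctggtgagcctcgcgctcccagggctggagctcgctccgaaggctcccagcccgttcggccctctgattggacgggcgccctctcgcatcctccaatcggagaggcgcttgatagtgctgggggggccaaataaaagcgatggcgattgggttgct
Suz12, chr11:79992856-79993105, plus strand: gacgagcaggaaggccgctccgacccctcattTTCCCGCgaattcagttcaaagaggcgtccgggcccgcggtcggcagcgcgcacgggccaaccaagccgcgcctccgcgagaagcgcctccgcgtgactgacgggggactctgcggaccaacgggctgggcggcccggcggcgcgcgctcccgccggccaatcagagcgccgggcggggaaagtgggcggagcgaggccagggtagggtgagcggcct
Phf19, chr2:34913977-34914226, minus strand: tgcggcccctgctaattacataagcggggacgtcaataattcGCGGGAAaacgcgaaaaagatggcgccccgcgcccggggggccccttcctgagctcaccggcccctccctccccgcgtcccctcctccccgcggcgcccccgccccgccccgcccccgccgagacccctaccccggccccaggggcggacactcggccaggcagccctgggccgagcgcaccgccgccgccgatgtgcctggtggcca
Kdm1b, chr13:47043249-47043498, plus strand: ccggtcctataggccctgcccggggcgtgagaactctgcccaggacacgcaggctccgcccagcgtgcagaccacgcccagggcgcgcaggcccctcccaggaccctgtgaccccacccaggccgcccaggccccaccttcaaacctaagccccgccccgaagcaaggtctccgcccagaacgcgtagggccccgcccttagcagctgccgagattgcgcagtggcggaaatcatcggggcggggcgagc
The Suz12 and Phf19 windows each held 1 such match, and the Ezh2 and Kdm1b windows held none. Among genes not shown, the window of Rbbp4, lower at E15.5 than at E13.5, held 1. For Pcgf5, which was higher at E15.5 than at E13.5, the windows starting at chr19:36348079 and chr19:36409498 held 1 each. The Pcgf5 window starting at chr19:36378817 held 0. A match to these letters was thus found in genes of either direction. Of 32851 RefSeq promoter windows of this length, 5.62% held these letters, and of 49 windows matched by symbol to 36 of the 45 genes, 6 (12.2%) did. The E-box letters CACGTG were in 6.02% of all windows and in 9 of the 49 (18.4%), and CCAAT in 33.8% of all and in 18 of the 49 (36.7%). The 49 windows were also richer in CpG, with a median of 20 CpG per window against 6 over all windows, so the base composition of both sets differs.

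Over the whole set, genes were called in both directions at every interval, and the count was close to or modestly above the background. Between E11.5 and E13.5, 5 of 45 genes were higher and 6 lower at E13.5 (24.4%), against 17.3% of all 11598 genes called in either direction. Between E13.5 and E15.5, 10 were higher and 12 lower at E15.5 (48.9%), against 41.3% of all genes. Across the whole period from E11.5 to E15.5, 12 were higher and 14 lower at E15.5 (57.8%), against 49.1% of all genes. The median log2 difference of the 45 genes was 0.15, -0.18 and -0.10 in these comparisons in turn, against 0.01, 0.02 and 0.03 over all genes. With cyclic loess in place of quantile scaling the members' medians were 0.13, 0.01 and 0.01, and the scaling shifted the median of all probes, with a log2 difference of -0.02, 0.12 and 0.10. A gene was called at an adjusted p below 0.05 in limma over all kept probes. The groups did not overlap for 17, 28 and 29 of the 45 genes, against 40.8%, 51.1% and 55.4% of all genes. Without E15.5 replicate 2 the counts were 5 higher and 8 lower, 11 higher and 12 lower, and 12 higher and 14 lower, against 23.2%, 43% and 50.5% of all genes called. The E13.5 germ cell arrays enter 3 of the 4 comparisons, so these are not independent of each other.

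**Figure D1:**
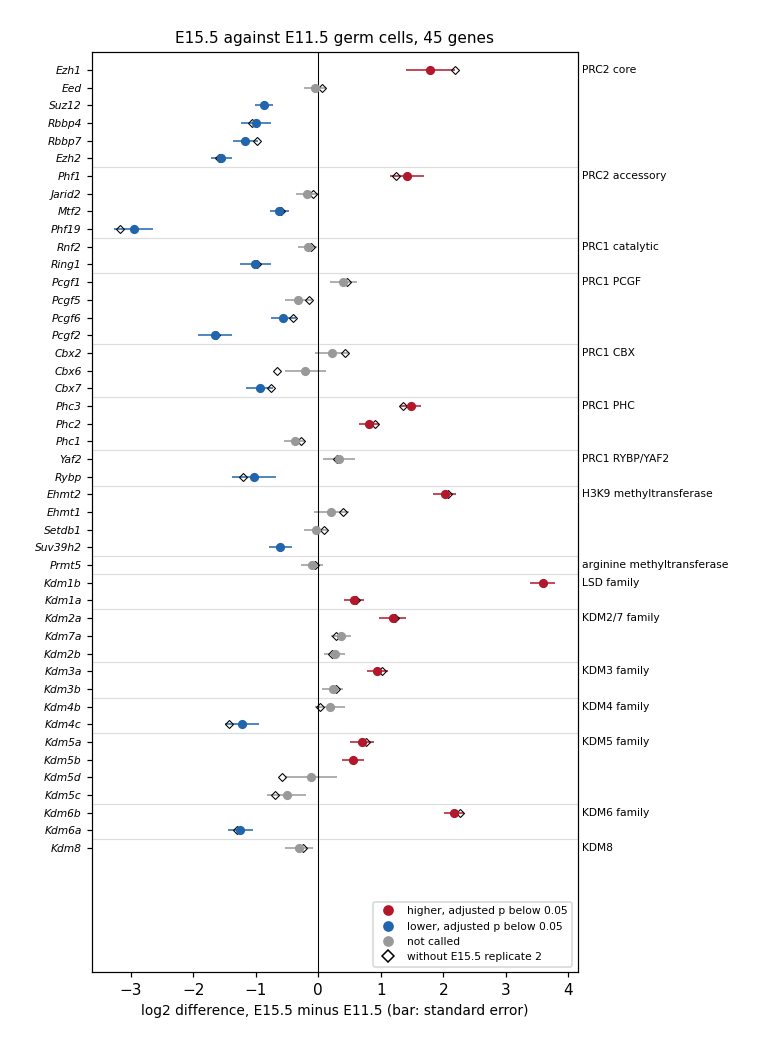
Log2 difference between E15.5 and E11.5 germ cells for the 45 genes, by complex, with the standard error as a bar (3 arrays a group); red is higher and blue lower at E15.5 with an adjusted p below 0.05, grey is not called, and open diamonds are the values without E15.5 replicate 2. Kdm1b lies at 3.59 and Phf19, detected at E15.5 on replicate 2 alone, at -2.95, and 12 genes are red and 14 blue.

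Most PRC2 genes fell between E13.5 and E15.5. Of 10 measured, 6 were lower at E15.5 (Ezh2, Suz12, Rbbp4, Rbbp7, Mtf2 and Phf19) and 2 were higher (Eed and Phf1), whereas Ezh1 and Jarid2 were not called. In all genes 20.7% were lower and 20.7% higher in that comparison. Between E13.5 and E11.5, by the brightest probe of each gene, Eed and Phf19 were called, both lower at E13.5. Of the dimmer probes in that comparison, 1 of Ezh2 (-0.70) and 1 of Rbbp4 (-0.74) were called lower and 1 of Rbbp7 higher.

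Ezh2, the main lysine 27 methyltransferase of dividing cells, measured 10.23, 10.38 and 10.34 in E11.5, 9.68, 9.84 and 10.26 in E13.5 and 8.66, 8.83 and 8.81 in E15.5 germ cells, and 9.72 and 9.73 in non-germ cells. All 3 E15.5 arrays lay below every E11.5 and E13.5 array. The log2 difference was -1.16 ± 0.17 (adjusted p = 0.000415) between E15.5 and E13.5 and -1.55 ± 0.17 (adjusted p = 3.56e-05) between E15.5 and E11.5, a 2.93-fold lower level at E15.5. All 3 kept Ezh2 probes were called lower at E15.5 in both comparisons. Ezh1, the alternative catalytic subunit more typical of non-dividing cells, went the other way and measured 6.55, 6.02 and 6.09 in E11.5, 8.03, 6.45 and 7.15 in E13.5 and 8.43, 7.27 and 8.34 in E15.5 germ cells, and 6.76 and 6.85 in non-germ cells. Its E15.5 arrays lay above all E11.5 arrays, where 2 of 3 detected it, but overlapped those of E13.5. It was higher at E15.5 than at E11.5 by 1.79 ± 0.39 (adjusted p = 0.00321), while the difference between E15.5 and E13.5 was 0.80 ± 0.39 (adjusted p = 0.132) with all arrays and 1.19 (adjusted p = 0.0252) without E15.5 replicate 2, in which it was lowest of the 3. It was 1.21 (adjusted p = 0.0278) without E13.5 replicate 1.

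Suz12, a scaffold of the core, measured 12.06, 12.32 and 12.06 in E11.5, 12.18, 12.19 and 12.09 in E13.5 and 11.26, 11.26 and 11.30 in E15.5 germ cells, and 10.98 and 11.09 in non-germ cells. The E15.5 arrays lay close together and below all earlier germ cell arrays, and the difference was -0.88 ± 0.14 (adjusted p = 0.000753) against E13.5. Rbbp4, a histone-binding subunit shared with other chromatin complexes, measured 9.38, 10.02 and 9.44 in E11.5, 9.57, 9.91 and 10.05 in E13.5 and 8.85, 8.73 and 8.26 in E15.5 germ cells, and 9.80 and 9.47 in non-germ cells. Its E15.5 arrays were also below all earlier ones, with a log2 difference of -1.23 ± 0.23 (adjusted p = 0.00192) against E13.5. Of 4 Rbbp4 probes, 2 were called lower in that comparison, the dimmer of them being undetected at E15.5 and at least 1.77-fold lower there. The other two were not called, at -0.32 and 0.01.

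The X-linked paralog Rbbp7 measured 9.26, 9.63 and 9.40 in E11.5, 9.62, 9.38 and 9.56 in E13.5 and 8.34, 7.89 and 8.57 in E15.5 germ cells, and 7.94 and 8.05 in non-germ cells. E15.5 replicate 2 was the lowest array, and all E15.5 arrays were below E13.5, with a difference of -1.26 ± 0.20 (adjusted p = 0.00056) and of -1.08 (adjusted p = 0.000811) without replicate 2. All 4 Rbbp7 probes were called lower at E15.5 than at E13.5. The second, detected on every germ cell array, was at -0.98, the third was detected on 1 of 3 E15.5 arrays, and the fourth, detected on none of them, was at least 1.49-fold lower. Between E13.5 and E11.5 the probes differed, since the second was higher at E13.5 by 1.26 ± 0.25 (adjusted p = 0.00695) and the first was at 0.09 ± 0.20 (adjusted p = 0.826). Eed, which binds trimethylated lysine 27, was lower at E13.5 than at E11.5, with a log2 difference of -0.59 ± 0.18 (adjusted p = 0.0444) and higher at E15.5 than at E13.5 by 0.54 ± 0.18 (adjusted p = 0.0324). Both Eed calls were fragile, the first being lost in 12 of 19 alternative analyses and the second in 5. In the first comparison the difference ranged from -0.69 to -0.48 and the adjusted p reached 0.144 without E11.5 replicate 3, and the call was also lost without any other E11.5 or E13.5 array, E15.5 replicate 1 or either non-germ array. In the second it was lost without E13.5 replicate 1 or 3 or E15.5 replicate 1 or 3, the adjusted p reaching 0.104.

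Of the accessory subunits, the Polycomb-like proteins moved apart. Phf19, which recruits PRC2 to methylated lysine 36, measured 8.22, 8.38 and 8.38 in E11.5, 7.0, 6.14 and 6.96 in E13.5 and 5.30, 5.81 and 5.01 in E15.5 germ cells, and 5.08 and 6.05 in non-germ cells. It declined at each interval with no overlap between stages, with a log2 difference of -1.63 ± 0.31 (adjusted p = 0.00487) and -1.33 ± 0.31 (adjusted p = 0.00608), and at E15.5 it was detected on replicate 2 alone. Over the whole period the log2 difference was -2.95 ± 0.31 (adjusted p = 2.39e-05), which rests on E15.5 values mostly not above background. Without replicate 2, E15.5 was at least 4.64-fold lower than E11.5 and at least 1.48-fold lower than E13.5. Each bound sets the earlier mean against the lowest value that counted as detected on the E15.5 arrays. Phf1, another Polycomb-like protein, measured 6.74, 7.34 and 7.22 in E11.5, 6.56, 7.45 and 7.23 in E13.5 and 8.16, 8.90 and 8.50 in E15.5 germ cells, and 8.91 and 8.78 in non-germ cells. The E15.5 arrays were above all earlier germ cell arrays, by 1.44 ± 0.27 (adjusted p = 0.00176) against E13.5 and by 1.27 (adjusted p = 0.00455) without E15.5 replicate 2, the highest of the 3. Mtf2, the third Polycomb-like protein, was lower at E15.5 than at E13.5, with a log2 difference of -0.71 ± 0.15 (adjusted p = 0.0037), and all 3 of its probes were called. Jarid2, a cofactor that stimulates PRC2, was not called in any stage comparison, from -0.24 to 0.06.

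**Figure D2:**
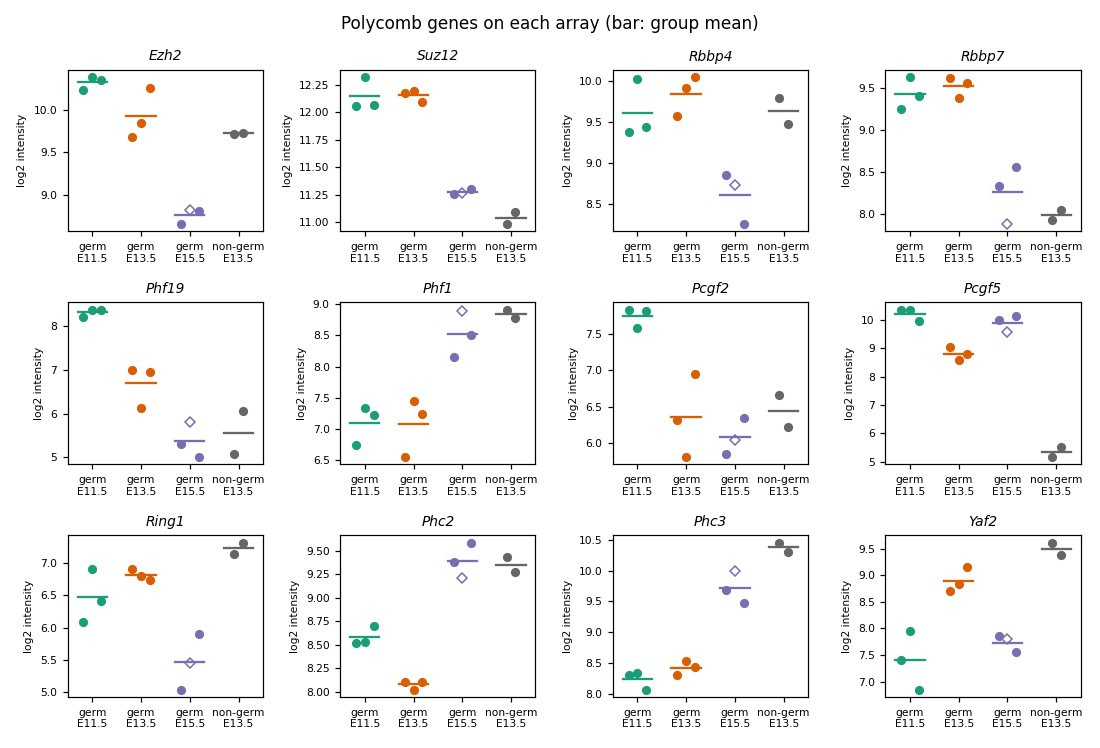
Normalized log2 intensity of 12 Polycomb genes on each of the 11 arrays, by group, with the group mean as a bar and E15.5 replicate 2 as an open diamond; vertical scales differ between panels and do not start at 0. Ezh2, Suz12, Rbbp4, Rbbp7, Phf19 and Ring1 are lowest at E15.5 among germ cells, and Phf1, Phc2 and Phc3 are highest there.

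PRC1 genes changed in both directions, and paralogs within the PCGF, PHC and RYBP/YAF2 subunits did not all follow the same course over the stages. Of 14 measured, 1 was higher and 3 lower at E13.5 than at E11.5, 3 higher and 3 lower at E15.5 than at E13.5, and 2 higher and 5 lower at E15.5 than at E11.5. In all genes, 9.98% were higher and 7.29% lower in the first of these comparisons and 20.7% each in the second. In the last, 25.4% were higher and 23.7% lower. Of the E3 ligases, Ring1 fell and Rnf2 was not called. Ring1 measured 6.09, 6.91 and 6.42 in E11.5, 6.91, 6.81 and 6.74 in E13.5 and 5.04, 5.46 and 5.90 in E15.5 germ cells, and 7.15 and 7.32 in non-germ cells. Detection was met on 2 of 3 E11.5 arrays and 1 of 3 E15.5 arrays. Its E15.5 arrays were below those of E13.5, with a log2 difference of -1.36 ± 0.25 (adjusted p = 0.00153). Rnf2, the more active ligase in embryonic cells, differed by a log2 value of -0.32 ± 0.16 (adjusted p = 0.128) in that comparison.

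The PCGF proteins define PRC1 subtypes. Pcgf2 (Mel18), of canonical PRC1, measured 7.83, 7.57 and 7.81 in E11.5, 6.32, 5.81 and 6.95 in E13.5 and 5.86, 6.04 and 6.35 in E15.5 germ cells, and 6.67 and 6.22 in non-germ cells. All E13.5 and E15.5 arrays were below all E11.5 arrays, and 1 of 3 arrays detected it at E13.5 and 2 of 3 at E15.5. The difference was -1.37 ± 0.27 (adjusted p = 0.006) between E13.5 and E11.5 and -0.28 ± 0.27 (adjusted p = 0.447) between E15.5 and E13.5. Pcgf5, of a variant PRC1, had a dip at E13.5 and measured 10.37, 10.36 and 9.96 in E11.5, 9.07, 8.59 and 8.80 in E13.5 and 10.0, 9.58 and 10.15 in E15.5 germ cells, and 5.17 and 5.52 in non-germ cells. No stage overlapped with E13.5, which was lower than E11.5, with a log2 difference of -1.41 ± 0.21 (adjusted p = 0.00128), and E15.5 was higher than E13.5 by 1.09 ± 0.21 (adjusted p = 0.00221). Both non-germ arrays left it undetected. Pcgf6, of the variant complex that silences germ line genes in other cells, measured 9.45, 9.18 and 9.56 in E11.5, 8.81, 9.22 and 9.06 in E13.5 and 9.11, 8.51 and 8.89 in E15.5 germ cells, and 7.21 and 6.89 in non-germ cells. It was lower at E15.5 than at E11.5, with a log2 difference of -0.56 ± 0.20 (adjusted p = 0.0417), a call lost without E15.5 replicate 2 at -0.40 (adjusted p = 0.127) and in a total of 9 of 19 alternatives. These included leaving out E11.5 replicate 1 or 3, E13.5 replicate 3 or E15.5 replicate 3, with an adjusted p of up to 0.128.

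Of the PHC proteins, which polymerise canonical PRC1, Phc2 and Phc3 rose and Phc1 fell between E13.5 and E15.5. Phc2 measured 8.51, 8.53 and 8.70 in E11.5, 8.10, 8.02 and 8.11 in E13.5 and 9.38, 9.21 and 9.59 in E15.5 germ cells, and 9.43 and 9.27 in non-germ cells. The 3 stages did not overlap, E15.5 being higher than E13.5 by 1.31 ± 0.15 (adjusted p = 9.54e-05), whereas E13.5 was lower than E11.5, with a log2 difference of -0.50 ± 0.15 (adjusted p = 0.0497), a call lost in 10 of 19 alternatives with an adjusted p of up to 0.144 without E11.5 replicate 3. Leaving out any other E11.5 or E13.5 array, E15.5 replicate 1 or either non-germ array lost it as well. Phc3 measured 8.31, 8.34 and 8.07 in E11.5, 8.30, 8.53 and 8.44 in E13.5 and 9.69, 9.98 and 9.48 in E15.5 germ cells, and 10.45 and 10.31 in non-germ cells. All E15.5 arrays were above all earlier germ cell arrays, by 1.29 ± 0.17 (adjusted p = 0.000214) against E13.5 and by 1.17 (adjusted p = 0.000392) without E15.5 replicate 2, the highest of them. Phc1, the paralog prominent in pluripotent cells, was lower at E15.5 than at E13.5, with a log2 difference of -0.76 ± 0.16 (adjusted p = 0.00346).

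Yaf2, an alternative to Rybp in variant PRC1, peaked at E13.5 and measured 7.41, 7.95 and 6.85 in E11.5, 8.70, 8.84 and 9.15 in E13.5 and 7.86, 7.80 and 7.55 in E15.5 germ cells, and 9.61 and 9.39 in non-germ cells. The E13.5 arrays were above all other germ cell arrays, by 1.49 ± 0.26 (adjusted p = 0.00272) against E11.5, and E15.5 was lower than E13.5, with a log2 difference of -1.16 ± 0.26 (adjusted p = 0.00445). Rybp was lower at E15.5 than at E11.5, with a log2 difference of -1.03 ± 0.36 (adjusted p = 0.0345), a call lost in 7 of 19 alternatives, among them without E11.5 replicate 2 or 3 or E15.5 replicate 1, with an adjusted p of up to 0.13. CBX proteins read methylated lysine 27. Cbx7 measured 8.03, 8.25 and 8.43 in E11.5, 7.85, 7.64 and 7.50 in E13.5 and 7.51, 6.91 and 7.47 in E15.5 germ cells, and 4.91 and 5.36 in non-germ cells, and was lower at E15.5 than at E11.5, with a log2 difference of -0.94 ± 0.21 (adjusted p = 0.00397) with no overlap. Cbx6 measured 10.40, 10.26 and 10.52 in E11.5, 9.72, 9.84 and 9.82 in E13.5 and 9.94, 11.08 and 9.54 in E15.5 germ cells, and 11.95 and 11.49 in non-germ cells. It was not called between E15.5 and E11.5 with all arrays (-0.21 ± 0.32, adjusted p = 0.63), and was lower without E15.5 replicate 2, its highest germ cell array, at -0.66 (adjusted p = 0.0179). Without that array Cbx6 and Cbx7 were also called lower at E13.5 than at E11.5, at -0.60 (adjusted p = 0.0343) and -0.58 (adjusted p = 0.0435). Cbx2 was not called in any comparison.

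Among the H3K9 methyltransferases, Ehmt2 rose at each interval, Suv39h2 fell at E15.5 and Setdb1 was not called across stages. Ehmt2 (G9a), the main H3K9 dimethyltransferase of euchromatin, measured 8.74, 8.97 and 8.97 in E11.5, 9.95, 9.41 and 9.66 in E13.5 and 10.78, 10.83 and 11.15 in E15.5 germ cells, and 9.28 and 9.38 in non-germ cells. The 3 stages did not overlap, with E13.5 higher than E11.5 by 0.78 ± 0.18 (adjusted p = 0.0152), E15.5 higher than E13.5 by 1.25 ± 0.18 (adjusted p = 0.000386) and E15.5 higher than E11.5 by 2.02 ± 0.18 (adjusted p = 9.5e-06), or 4.07-fold. The first of these calls was lost without E11.5 replicate 1 (adjusted p = 0.0614) or E13.5 replicate 1 (adjusted p = 0.0608). All 3 Ehmt2 probes were called higher at E15.5 than at E13.5 and at E11.5, the dimmest being undetected at both earlier stages. Its partner Ehmt1 (GLP) was detected on none of the E11.5 arrays, on 1 of 3 arrays at each later stage and on both non-germ arrays, so its level in germ cells lay mostly below detection.

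Suv39h2, which trimethylates H3K9 in heterochromatin, measured 7.92, 8.15 and 8.24 in E11.5, 7.69, 8.27 and 8.18 in E13.5 and 7.47, 7.49 and 7.53 in E15.5 germ cells, and 5.94 and 6.01 in non-germ cells. The E15.5 arrays were below all earlier germ cell arrays, with a log2 difference of -0.55 ± 0.18 (adjusted p = 0.0323) against E13.5, but the call was lost in 8 of 19 alternatives, among them without E15.5 replicate 2 at -0.56 (adjusted p = 0.0508) and with an adjusted p of 0.139 under cyclic loess. It was lost as well without E13.5 replicate 2 or 3 or without E15.5 replicate 1 or 3, with an adjusted p of up to 0.122. Its second probe was lower in the same comparison, with a log2 difference of -1.16 ± 0.20 (adjusted p = 0.00106). Setdb1, which silences retroelements in fetal germ cells, differed by 0.18 ± 0.19 (adjusted p = 0.584) between E13.5 and E11.5 and -0.22 ± 0.19 (adjusted p = 0.378) between E15.5 and E13.5. Prmt5, an arginine methyltransferase required in primordial germ cells, measured 10.47, 10.71 and 10.47 in E11.5, 11.12, 10.57 and 10.69 in E13.5 and 10.56, 10.36 and 10.44 in E15.5 germ cells, and 9.76 and 9.85 in non-germ cells. It was not called in any stage comparison, the differences being 0.24, -0.34 and -0.10.

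Of 16 demethylases, 7 were higher and 2 lower at E15.5 than at E11.5, against 25.4% higher and 23.7% lower over all genes, and the flavin-dependent Kdm1b had the largest difference. Between E13.5 and E11.5, 3 were higher (Kdm1b, Kdm5b and Kdm6b) and 1 was lower (Kdm6a) at E13.5, and between E15.5 and E13.5, 4 were higher (Kdm1b, Kdm2a, Kdm3a and Kdm6b) and 2 lower (Kdm4c and Kdm5b) at E15.5. Over all genes 9.98% were higher and 7.29% lower in the first comparison, and 20.7% each in the second. Among the 7 higher at E15.5 than at E11.5, Kdm5b lost its call without E11.5 replicate 2 or 3 or E15.5 replicate 1. Its adjusted p reached 0.0755. Kdm5a lost its call in that comparison without E11.5 replicate 1 (adjusted p = 0.055). Kdm1b (LSD2), a demethylase of lysine 4 needed for DNA methylation imprints in mouse oocytes, measured 7.83, 8.55 and 8.49 in E11.5, 10.04, 9.74 and 9.85 in E13.5 and 11.79, 11.91 and 11.93 in E15.5 germ cells, and 8.05 and 8.37 in non-germ cells. No stage overlapped with another, and the differences were 1.59 ± 0.21 (adjusted p = 0.000534) between E13.5 and E11.5 and 2.00 ± 0.21 (adjusted p = 4.44e-05) between E15.5 and E13.5. Over the whole period it was 12-fold higher at E15.5, a log2 difference of 3.59 ± 0.21 (adjusted p = 5.64e-07). A second probe rose too, by 3.45 ± 0.18 (adjusted p = 3.73e-07) over the whole period, while the dimmest kept probe was not called at 0.52 ± 0.39 (adjusted p = 0.305). Kdm1a (LSD1), its paralog and a lysine 4 demethylase of corepressor complexes, was higher at E15.5 than at E11.5 by 0.56 ± 0.16 (adjusted p = 0.0129), a call lost without E11.5 replicate 2 (adjusted p = 0.0563).

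Kdm3a, which removes H3K9 mono- and dimethylation, measured 10.90, 10.86 and 10.75 in E11.5, 11.37, 10.91 and 10.96 in E13.5 and 11.80, 11.66 and 11.89 in E15.5 germ cells, and 10.52 and 10.40 in non-germ cells. The E15.5 arrays were above all earlier ones, by 0.71 ± 0.17 (adjusted p = 0.00644) against E13.5, and 3 of 4 probes were called higher. Kdm2a, a lysine 36 demethylase that binds CpG islands, measured 8.30, 9.08 and 8.66 in E11.5, 9.44, 8.98 and 9.05 in E13.5 and 9.83, 9.82 and 9.96 in E15.5 germ cells, and 9.45 and 9.71 in non-germ cells. It was higher at E15.5 than at E13.5 by 0.71 ± 0.22 (adjusted p = 0.023) by its first probe, whereas its second was not called at 0.06. That call was lost without E13.5 replicate 2 (adjusted p = 0.0818), E13.5 replicate 3 (adjusted p = 0.0752) or E15.5 replicate 3 (adjusted p = 0.0656). For Kdm7a, a demethylase of lysines 9 and 27, the probes also disagreed, the first at 0.36 ± 0.16 (adjusted p = 0.0782) and the second higher by 1.43 ± 0.20 (adjusted p = 0.000188) between E15.5 and E11.5.

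Kdm4c, which removes H3K9 trimethylation, was detected at E15.5 on replicate 2 alone and measured 6.14, 6.48 and 6.99 in E11.5, 6.61, 6.70 and 7.11 in E13.5 and 4.90, 5.79 and 5.27 in E15.5 germ cells, and 6.41 and 6.13 in non-germ cells. The E15.5 arrays were below all earlier germ cell arrays, with a log2 difference of -1.49 ± 0.27 (adjusted p = 0.0015) against E13.5, mostly from values not above background. Without replicate 2, E15.5 was at least 1.6-fold lower than E13.5. Kdm5b, a lysine 4 demethylase, had its highest germ cell values at E13.5 and measured 9.91, 9.62 and 9.63 in E11.5, 11.29, 10.78 and 10.80 in E13.5 and 10.32, 10.27 and 10.23 in E15.5 germ cells, and 10.59 and 10.57 in non-germ cells. E13.5 was higher than E11.5 by 1.24 ± 0.18 (adjusted p = 0.000891), and E15.5 was lower than E13.5, with a log2 difference of -0.68 ± 0.18 (adjusted p = 0.0103), with no overlap. All 3 Kdm5b probes were called higher at E13.5 than at E11.5, but the later fall was not called by the other two, at -0.49 and 0.49. Kdm8, a JmjC protein assigned to lysine 36 and to hydroxylation, measured 8.92, 8.50 and 9.21 in E11.5, 8.69, 8.72 and 8.84 in E13.5 and 8.88, 8.45 and 8.38 in E15.5 germ cells, and 7.47 and 7.98 in non-germ cells, and was not called in any stage comparison.

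Kdm6a and Kdm6b remove lysine 27 methylation, and their first probes moved in opposite directions. The X-linked Kdm6a (Utx) measured 7.74, 7.62 and 7.12 in E11.5, 6.80, 6.72 and 6.63 in E13.5 and 6.02, 6.33 and 6.38 in E15.5 germ cells, and 6.60 and 6.19 in non-germ cells. Its 3 stages did not overlap, with E13.5 lower than E11.5, with a log2 difference of -0.78 ± 0.20 (adjusted p = 0.0252) and E15.5 lower than E11.5, with a log2 difference of -1.25 ± 0.20 (adjusted p = 0.000468). The first of these calls was lost in 5 of 19 alternatives, each without 1 E11.5 or E13.5 array (E11.5 replicate 1 or 2, or any E13.5 replicate), with an adjusted p of up to 0.0974. All 3 Kdm6a probes were called lower at E15.5 than at E11.5, the dimmest being undetected at E13.5 and E15.5 and at least 1.77-fold lower at E15.5. Since E11.5 gonads were labelled male/female and the later ones male, sex and stage cannot be told apart in comparisons with E11.5. This holds for X-linked and Y-linked genes and for all others. Xist, the RNA of the inactive X, measured 7.60, 6.78 and 6.79 in E11.5, 6.65, 6.04 and 5.73 in E13.5 and 5.84, 5.82 and 6.06 in E15.5 germ cells, and no non-germ array detected it. In germ cells Xist was detected on 3 of 3 arrays at E11.5, 1 of 3 at E13.5 and 2 of 3 at E15.5. The Y-linked Eif2s3y was detected on every array. It measured 10.40, 9.44 and 10.76 in E11.5, 10.95, 11.53 and 11.24 in E13.5 and 11.27, 10.77 and 10.96 in E15.5 germ cells. The X-linked lysine 4 demethylase Kdm5c was detected on 3 of 11 arrays and was not called, and its Y-linked paralog Kdm5d gave a difference between E15.5 and E13.5 of -0.66 ± 0.41 (adjusted p = 0.236) with all arrays and of -1.13 (adjusted p = 0.0258) without E15.5 replicate 2.

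The 4 probes carrying the name Kdm6b (Jmjd3) did not agree. The brighter kept probe, ILMN_3023230, measured 6.69, 6.83 and 6.54 in E11.5, 8.36, 8.27 and 8.20 in E13.5 and 9.0, 8.71 and 8.86 in E15.5 germ cells, and 9.86 and 9.60 in non-germ cells. Each stage was above the one before with no overlap, E13.5 over E11.5 by 1.59 ± 0.16 (adjusted p = 9.65e-05), E15.5 over E13.5 by 0.58 ± 0.16 (adjusted p = 0.014) and E15.5 over E11.5 by 2.17 ± 0.16 (adjusted p = 2.29e-06), with the second of these calls lost without E13.5 replicate 3 (adjusted p = 0.0528). The other kept probe, ILMN_2693361, measured 6.03, 6.55 and 6.10 in E11.5, 6.33, 6.48 and 6.35 in E13.5 and 6.30, 5.95 and 5.53 in E15.5 germ cells, and 5.66 and 5.30 in non-germ cells. Its E15.5 arrays lay just below those of E13.5, the other stages overlapped, and none of its stage differences was called, at 0.16, -0.46 and -0.30. Against non-germ cells both were called, in opposite directions. Germ cells were lower, with a log2 difference of -1.45 ± 0.18 (adjusted p = 5.91e-05) by ILMN_3023230 and at least 1.48-fold higher by ILMN_2693361 (adjusted p = 0.00997), which no non-germ array detected. In germ cells ILMN_2693361 was itself near the detection limit, met on 2 of 3 arrays at E11.5, 2 of 3 at E13.5 and 1 of 3 at E15.5. The lowest value that counted as detected was 6.34 on E13.5 replicate 1, which left the probe undetected, and 5.82 on each non-germ array. The bound thus includes an undetected germ cell value. The call of the dimmer probe was lost without non-germ replicate 2 (adjusted p = 0.103) and with the authors' rescaled table (adjusted p = 0.0698). ILMN_3095624 was detected on 1 array, and ILMN_1230507, named for Kdm6b and 1700064E03Rik together, on none, so neither was tested. Of 23 genes with several kept probes, Kdm6b was the only one with opposite calls in any of the 4 comparisons.

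**Figure D3:**
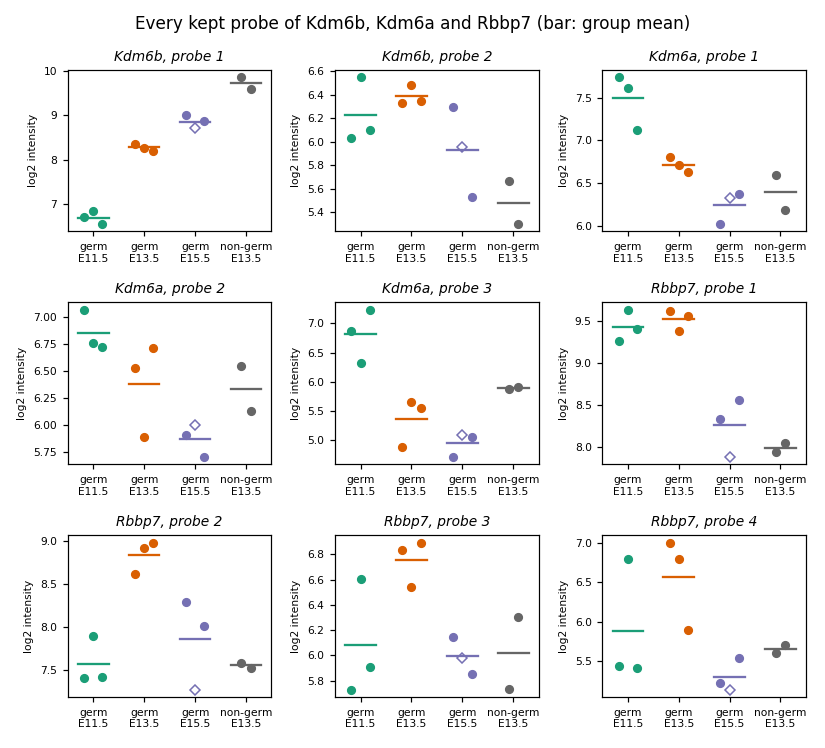
Normalized log2 intensity on each array for every kept probe of Kdm6b, Kdm6a and Rbbp7, numbered from the highest mean, with the group mean as a bar and E15.5 replicate 2 as an open diamond; vertical scales differ between panels. Kdm6b probe 1 is highest in non-germ cells and Kdm6b probe 2 lowest there, while the 3 Kdm6a probes are highest at E11.5 and the 4 Rbbp7 probes are lower at E15.5 than at E13.5.

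**Figure D4:**
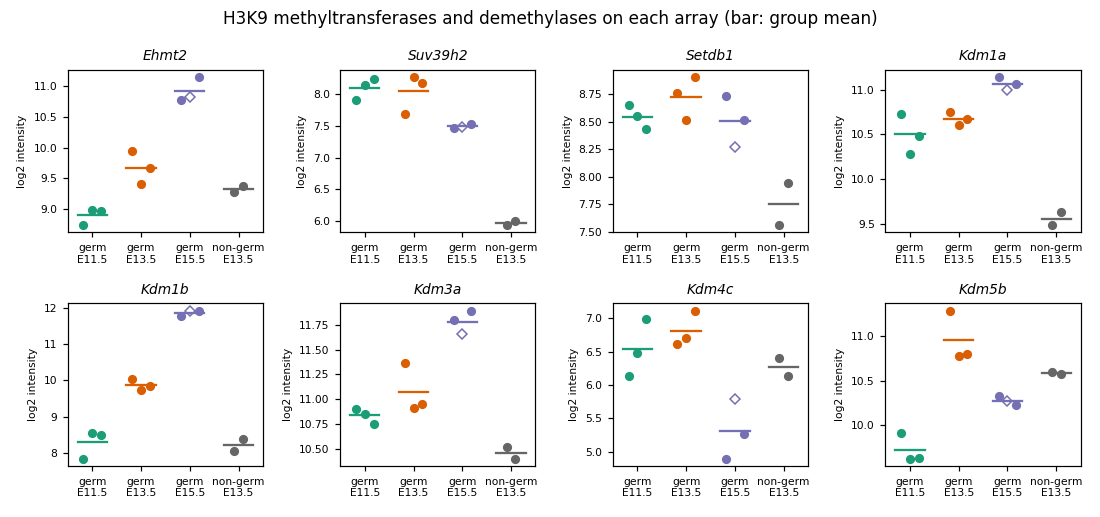
Normalized log2 intensity of 3 H3K9 methyltransferases and 5 demethylases on each of the 11 arrays, by group, with the group mean as a bar and E15.5 replicate 2 as an open diamond; vertical scales differ between panels. Ehmt2 and Kdm1b are higher at each later stage with no overlap, and Kdm5b is highest among germ cells at E13.5.

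Germ cells were then set against the non-germ fraction of the same stage, the one comparison with a control. At E13.5, 20 of 45 genes were higher and 6 lower in germ cells (57.8%), against 56.2% of all genes called, 30.2% higher and 26% lower. Both counts were the same without E15.5 replicate 2, where 60.5% of all genes were called. Germ and non-germ arrays did not overlap for 36 of the 45 genes, against 74.5% of all genes. The share called was therefore near the background, and its split leaned towards germ cells. The median difference of the 45 genes was 0.37, against 0.12 over all genes. With cyclic loess the members' median was 0.05, the shift in the median of all probes was -0.22, and 15 genes were higher and 10 lower, Ring1, Rybp, Yaf2 and Kdm2a being added to the lower ones. Both groups are bulk samples, in which fewer cells of a type and less RNA per cell cannot be told apart. The 2 non-germ arrays differed in erythroid markers, at 12.4 and 9.59 over 6 genes, and the part of this in the results was not tested.

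**Figure D5:**
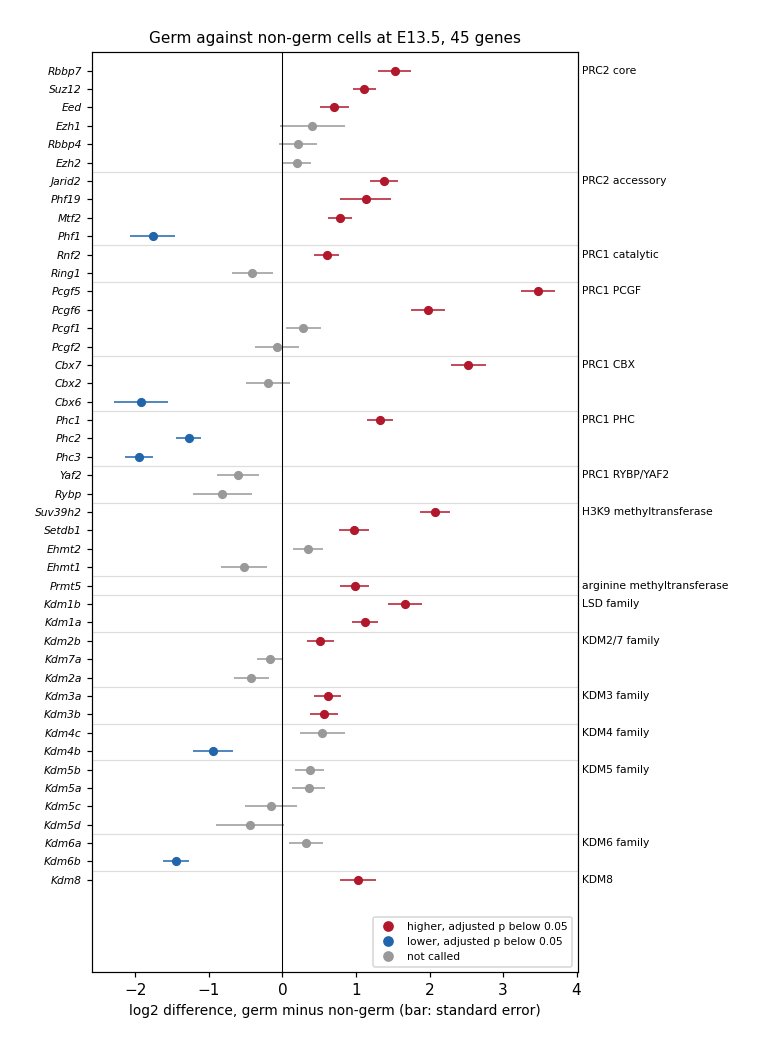
Log2 difference between germ and non-germ cells at E13.5 for the 45 genes, by complex, with the standard error as a bar (3 germ and 2 non-germ arrays); red is higher and blue lower in germ cells with an adjusted p below 0.05, and grey is not called. Pcgf5 lies furthest right at 3.48, although undetected in non-germ cells, and Phc3 furthest left at -1.96.

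Of the PRC2 genes, 6 of 10 were higher in germ cells and 1 was lower, against 30.2% and 26% of all genes. The call of Eed, 1 of the 6, was lost under cyclic loess (difference 0.39, adjusted p = 0.109). It was also lost without non-germ replicate 1 (difference 0.67). The difference was 1.52 ± 0.22 (adjusted p = 0.000173) for Rbbp7, 1.38 ± 0.19 (adjusted p = 0.000151) for Jarid2 and 1.12 ± 0.16 (adjusted p = 0.000177) for Suz12. Phf19 was higher by 1.13 ± 0.34 (adjusted p = 0.0168), a call lost without non-germ replicate 1 (difference 0.64, adjusted p = 0.215), E13.5 replicate 1 (adjusted p = 0.0561) or E13.5 replicate 3 (adjusted p = 0.054). The catalytic subunits were not called, Ezh2 at 0.20 ± 0.19 (adjusted p = 0.404) and Ezh1 at 0.40 ± 0.44 (adjusted p = 0.466). Phf1 was lower in germ cells, with a log2 difference of -1.77 ± 0.30 (adjusted p = 0.00056).

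In PRC1, 5 of 14 genes were higher and 3 lower in germ cells, with PHC and CBX paralogs on both sides. The shares over all genes were 30.2% and 26%. The call of Rnf2, 1 of the 5, was lost under cyclic loess (difference 0.28, adjusted p = 0.187). It was also lost without non-germ replicate 1 (difference 0.55). Pcgf5 and Cbx7 were undetected in both non-germ arrays and were at least 7.996-fold (adjusted p = 1.53e-06) and at least 3.59-fold (adjusted p = 1.22e-05) higher in germ cells. These bounds compare the germ cell mean with the lowest value that counted as detected on each non-germ array. Pcgf6 was higher by 1.98 ± 0.23 (adjusted p = 3.94e-05) and Phc1 by 1.33 ± 0.18 (adjusted p = 0.000119). On the other side, 3 genes were lower in germ cells, Phc3 at -1.96 ± 0.19 (adjusted p = 1.65e-05), Phc2 at -1.27 ± 0.17 (adjusted p = 0.000117) and Cbx6 at -1.93 ± 0.36 (adjusted p = 0.00103). Phf1, Phc2, Phc3 and the brighter Kdm6b probe were thus lower in germ cells than in the non-germ fraction at E13.5 and higher in germ cells at E15.5 than at E13.5, and each of the 4 stage calls held without E15.5 replicate 2. In E15.5 replicates 1 and 3, interstitial markers averaged 6.47 and 6.66, and erythroid markers 6.24 and 6.48. E13.5 germ cells averaged at most 6.04 and 5.49 for these. Sertoli markers averaged 6.12 and 7.05 in the same E15.5 arrays, against 5.48 to 6.52 in E13.5 germ cells. Single markers differed more than these averages. Pdgfra measured 9.80 and 10.04 there, against 6.39 to 7.34 in E13.5 germ cells, and Sox9 9.86 and 10.53, against 5.00 to 8.36. Nr2f2 (4.89 and 4.88, against 4.83 to 5.62) and Dhh (5.03 and 5.88, against 5.24 to 5.96) did not exceed the E13.5 values. The part of such transcripts in the 4 rises was not tested.

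Suv39h2 had the largest difference of the methyltransferases, higher in germ cells by 2.07 ± 0.20 (adjusted p = 1.5e-05), and its second probe, undetected in non-germ cells, was at least 3.4-fold higher in germ cells (adjusted p = 2.89e-05). Setdb1 was higher by 0.98 ± 0.21 (adjusted p = 0.00227) and Prmt5 by 0.99 ± 0.20 (adjusted p = 0.00154), with all 3 Prmt5 probes called, whereas Ehmt2 was not called at 0.35 ± 0.20 (adjusted p = 0.176). Among the demethylases 6 of 16 were higher in germ cells (Kdm1a, Kdm1b, Kdm2b, Kdm3a, Kdm3b and Kdm8) and 2 were lower (Kdm4b and Kdm6b). Over all genes, 30.2% were higher and 26% lower. Kdm1b was higher by 1.67 ± 0.23 (adjusted p = 0.000139) and Kdm1a by 1.12 ± 0.18 (adjusted p = 0.000338). Kdm8 was higher by 1.03 ± 0.25 (adjusted p = 0.00522), and its second probe was called as well, at 1.15. The calls of Kdm2b, Kdm3a and Kdm3b, at 0.51, 0.62 and 0.56, were lost under cyclic loess with adjusted p-values of 0.381, 0.181 and 0.255. Each was also lost without either non-germ array, with an adjusted p of up to 0.189, and Kdm2b and Kdm3b were lost without E13.5 replicate 2 or 3 and Kdm2b without E13.5 replicate 1, with an adjusted p of up to 0.0909. Without non-germ replicate 1, the calls of Kdm4b (-0.95 with all arrays, -0.57 and adjusted p = 0.163 without it) and Kdm8 (adjusted p = 0.0725) were lost too.

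Other genes of the same pathways were read from lists that none of the 45 genes enters, counted by the same rule. The lists were chosen with earlier results of these data known, so their counts are not an independent test. The arginine list holds other arginine methyltransferases as well as partners. Over all genes, 20.7% were higher and 20.7% lower at E15.5 than at E13.5, 25.4% higher and 23.7% lower at E15.5 than at E11.5, and 30.2% higher and 26% lower in germ cells than in the non-germ fraction. Between E15.5 and E13.5, 7 of 9 measured partners of arginine methylation were lower at E15.5 and 0 higher, with Prdm14, a germ cell transcription factor undetected at E15.5, at least 1.83-fold lower there (adjusted p = 3.61e-05) and Prmt6, an arginine methyltransferase, at -1.57 ± 0.16 (adjusted p = 4.03e-05). Of 14 partners and readers of H3K9 methylation, 6 were lower and 0 higher at E15.5 in that comparison, led by Trim28, the corepressor that recruits Setdb1, at -0.94 ± 0.18 (adjusted p = 0.00171). Without E15.5 replicate 2 these counts were 7 lower and 1 higher of 9, and 5 lower and 1 higher of 14. Against non-germ cells, 7 of 9 arginine partners and 7 of 14 H3K9 partners were higher in germ cells, the H3K9 list being led by Atf7ip2, a Setdb1-binding protein detected on 1 of 2 non-germ arrays, at 3.07 ± 0.22 (adjusted p = 1.97e-06). In neither list was a gene lower in germ cells with all arrays, and 1 arginine partner was without E15.5 replicate 2.

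Of 5 PRC2 partners, 3 were higher and 2 lower at E15.5 than at E11.5. Ezhip, an inhibitor of PRC2 known from gonads, was higher at E13.5 than at E11.5 by 1.67 ± 0.23 (adjusted p = 0.000715), and at least 5.99-fold higher in germ cells than in the non-germ arrays, which did not detect it (adjusted p = 2.92e-06). Lcorl, a PRC2 accessory protein, was higher at E15.5 than at E11.5 by 2.36 ± 0.16 (adjusted p = 1.73e-06). Of 17 PRC1 partners, 10 were higher and 2 lower in germ cells than in the non-germ fraction, and 6 were higher and 4 lower at E15.5 than at E11.5, set against 30.2% and 26% of all genes in the first comparison and 25.4% and 23.7% in the second. Bcorl1, a corepressor of variant PRC1, was undetected at E11.5 and at least 7.81-fold higher at E13.5 (adjusted p = 2.66e-05) and at least 17.4-fold at E15.5 (adjusted p = 6.84e-07). Sex and stage cannot be told apart in these differences from E11.5, where gonads were labelled male/female.

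Among 13 other JmjC proteins and demethylase partners, 6 were higher and 3 lower at E15.5 than at E11.5 (25.4% and 23.7% over all genes), with the H3K9 demethylases Phf8 and Phf2 higher by 3.28 ± 0.22 (adjusted p = 1.38e-06) and 2.80 ± 0.28 (adjusted p = 1.73e-05). In these differences from E11.5, too, sex and stage cannot be told apart. Phf2 was lower in germ cells than in the non-germ fraction at E13.5, with a log2 difference of -2.62 ± 0.31 (adjusted p = 5.02e-05), and Phf8 was not called there, at 0.01 ± 0.25 (adjusted p = 0.979). The part of non-germ transcripts in the rise of Phf2 at E15.5 was not tested. Of 21 other lysine methyltransferase genes, 6 were higher and 5 lower at E15.5 than at E11.5, near the shares of 25.4% and 23.7% over all genes, with Smyd2 at -1.43 ± 0.18 (adjusted p = 9.03e-05) and Dpy30, a subunit of lysine 4 methyltransferases, at -1.11 ± 0.17 (adjusted p = 0.000324).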

How the data were processed

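RNA from 11 sorted samples was measured on Illumina BeadChips of 45281 probes. The non-normalized table deposited by the authors holds signal intensity on a linear scale, whose lowest values show that no background was subtracted, with a detection p-value beside each intensity column in the deposited table. The authors also deposited a table of rescaled intensity, linear in the signals of the same array (r = 1), and the method behind that rescaling is not given in the sources used here. With R 4.3.3 and limma 3.58.1, neqc estimated background through the detection p-values, with 16 as the offset, followed by quantile scaling and log2. Probes with a detection p-value below 0.01 on at least 2 arrays were kept. Genes were named from the platform annotation, where 34885 probes had 1 symbol, 18 several and 10378 none, and 99.8% of named probes matched RefSeq by Entrez number. One limma model with a mean per group was fitted to all 11 arrays (7 residual and 3.97 prior degrees of freedom), moderated by eBayes. Tests were two-sided, with Benjamini-Hochberg adjustment over all 21943 kept probes. Errors beside differences are the fit's standard errors.

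A gene was counted by its kept probe with the highest mean. Values on every array are given for each kept Kdm6b probe, for called members of at least 2-fold without overlap (up to 6 in each direction per comparison) and for the member of each complex with the smallest adjusted p. X-linked and Y-linked members are named, and pathway lists give up to 2 examples by smallest adjusted p. Values of further members stand beside them where the text groups them by complex. The members and lists were chosen with earlier results of these data known. The fit was tested on simulated data. Depth does not apply to arrays, whose number limits precision. Promoter windows and figures were made with Python 3.11.15, pandas 2.3.3 and matplotlib 3.10.9. The alternatives were another background offset, cyclic loess, the authors' rescaled table, a filter of at least 3 arrays or none, 1 probe per gene, a replicate block, the 2 groups alone and leaving out each array.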

Additional observations from a re-analysis of the deposited data

How the results depend on the processing

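No called difference of a named gene changed sign under any of the 19 alternatives. Of 86 such calls, 77 held under cyclic loess, 82 with the authors' rescaled table, 83 with no detection filter, 81 with the 2 groups alone, and all 86 with an offset of 50 or a filter of at least 3 arrays. With 1 probe per gene all of 85 held. When 1 array was left out, between 75 (without E13.5 replicate 3) and 84 (without E15.5 replicate 2) of 86 held. Under cyclic loess the members lower in germ cells than in the non-germ fraction numbered 10, against 6, and of all called probes 41.8% were higher in germ cells, against 55.3%. In the comparison of E15.5 with E13.5, 57.5% of called probes were higher under cyclic loess, against 45.7%. The cause was not tested. With 1 array left out, members ranged from 4 to 6 higher and 3 to 8 lower at E13.5 than at E11.5 (3 without E11.5 replicate 1 or 2 or any E13.5 replicate, against 6), from 7 to 11 higher and 11 to 12 lower at E15.5 than at E13.5, and from 10 to 12 higher and 11 to 14 lower at E15.5 than at E11.5. Those higher in germ cells than in the non-germ fraction ranged from 13 (without non-germ replicate 1) to 20, against 20 with all arrays, and those lower from 5 to 7. Probes of all genes called ranged from 2174 (without E13.5 replicate 1) to 4471 (without E15.5 replicate 2) in the first comparison, against 3357 with all arrays, from 6486 to 8482 in the second, from 8834 to 10129 in the third and from 8145 to 12295 against non-germ cells. Deviations from the group means of arrays with the same replicate number correlated between -0.10 and 0.11 over 15 pairs. With unlike numbers the range was -0.17 to 0.18 over 30 pairs. The numbers thus gave no sign of pairing, which such correlations cannot exclude. With the replicate block 82 of 86 calls held, and members were 5 higher and 4 lower, 10 higher and 12 lower, 12 higher and 13 lower, and 19 higher and 7 lower in the 4 comparisons in turn. The slide as a block was not run, since the headers name no slide. Signal over background limits the dim probes, of which 32 were not kept.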
